A study of Mus musculus with 7 samples.

Results

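Molecular chaperones were examined in naive CD4 T cells, the resting helper T cells that precede antigen contact, through the 74 genes, of 34745 in the deposited table, whose symbols begin with Hsp followed by a, b, d, e, h or a digit, or with Dnaja, Dnajb or Dnajc followed by a digit. Names containing "-ps", which mark pseudogenes and numbered 11, were left out. The cells came from the spleens of male C57BL/6 mice aged 8 weeks, 3 of them wild type (WT) and 4 labelled PIK3CD GOF (heterozygous), that is, with 1 allele of gain of function in the gene of the p110delta catalytic subunit of phosphoinositide 3-kinase. Controls were littermates, and the cells were purified by negative selection, without culture or treatment, before RNA sequencing. The mutation in the allele is not given in the sources used here. A comparison of the genotypes asks which chaperone genes were expressed differently in the mutant cells.

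Heat shock proteins bind unfolded or partly folded proteins and help them to fold, to stay soluble or to be degraded. HSP70 proteins do this in cycles of ATP hydrolysis that are started by J-domain partners, the DNAJA, DNAJB and DNAJC proteins (also called HSP40), and reset by nucleotide exchange factors such as the HSP110 proteins. HSP90 acts later, on kinases and receptors near their final shape, while HSP60 with its lid HSP10 folds proteins inside mitochondria and small HSPs hold aggregation-prone proteins. Each compartment has its own set. The factor HSF1 induces cytosolic chaperones after heat or other proteotoxic stress by binding heat shock elements, arrays of the unit GAA and its complement TTC, and the unfolded protein response induces chaperones of the endoplasmic reticulum (ER) through the ER stress element. In T cells the ER set is drawn on when secretory and membrane proteins are made in quantity.

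The promoters shown here carry these elements and belong to genes on which the results turn. They are RefSeq sequences on GRCm38.p6 (the same assembly as mm10), the 250 bases before the annotated start, written 5′ to 3′ in the direction of the gene, and RefSeq entries were found for 60 of the 74 genes. Of 12 genes listed as inducible by heat, 10 had an entry, and Hsp90aa1 and Hspa8, without one, were not searched. Of 13 genes listed for the ER, 11 had an entry. Capitals in the first 3 mark the ER stress element, CCAAT and CCACG parted by any 9 bases, on either strand, which was present in 0.113% of all 32851 promoters of this length and upstream of 3 chaperone genes, Hspa5, Dnajc3 and Hsp90b1.
Hspa5, chr2:34771840-34772089, plus strand: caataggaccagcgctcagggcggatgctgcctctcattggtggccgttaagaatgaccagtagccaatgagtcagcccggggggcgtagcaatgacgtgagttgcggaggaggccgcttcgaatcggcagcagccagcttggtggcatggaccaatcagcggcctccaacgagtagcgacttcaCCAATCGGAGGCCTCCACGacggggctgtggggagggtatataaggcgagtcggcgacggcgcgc
Dnajc3, chr14:118937682-118937931, plus strand: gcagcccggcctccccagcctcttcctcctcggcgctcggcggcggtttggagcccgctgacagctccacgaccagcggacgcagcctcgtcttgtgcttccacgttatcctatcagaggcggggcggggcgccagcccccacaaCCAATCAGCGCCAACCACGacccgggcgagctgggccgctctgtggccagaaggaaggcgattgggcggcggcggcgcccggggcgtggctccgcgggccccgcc
Hsp90b1, chr10:86705445-86705694, minus strand: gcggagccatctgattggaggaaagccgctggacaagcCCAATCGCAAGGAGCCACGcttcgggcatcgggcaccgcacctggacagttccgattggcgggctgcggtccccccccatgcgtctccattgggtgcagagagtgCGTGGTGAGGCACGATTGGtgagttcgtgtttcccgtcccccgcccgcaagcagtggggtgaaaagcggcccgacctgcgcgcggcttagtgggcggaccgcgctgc
Capitals in the next mark overlapping 3-unit heat shock elements, in which GAA and TTC alternate with any 2 bases between units, in the 215 bases between the start of Hspe1 and the start of an Hspd1 transcript in the other direction. These genes encode HSP10 and HSP60.
Hspd1 to Hspe1, chr1:55087933-55088147, plus strand: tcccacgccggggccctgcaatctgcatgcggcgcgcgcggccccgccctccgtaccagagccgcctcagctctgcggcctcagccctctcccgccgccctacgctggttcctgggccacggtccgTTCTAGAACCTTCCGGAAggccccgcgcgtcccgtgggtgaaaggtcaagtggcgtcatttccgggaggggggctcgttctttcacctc
The 3-unit element was found in 0.466% of all promoters and in 5.19% of the 77 promoters of chaperone genes. It lay upstream of 3 chaperone genes, Hspd1, Hspe1 and Dnajb6. The 4 matching promoters hold fewer separate elements, because overlapping Dnajb6 windows contain the same bases and Hspd1 and Hspe1 share theirs. The percentages count promoters and not separate elements. Shorter elements of 2 such units (TTCNNGAA and GAANNTTC), searched on both strands after the letters had been read, were found in 12.8% of all promoters and in 20.8% of the 77 promoters of chaperone genes (some genes have several). Capitals in the last pair mark them in Hsph1, which encodes an HSP110, and Hspa1b, an inducible HSP70. The Hspa1b window was identical to that of its neighbour Hspa1a at 247 of 250 positions. Some shorter elements were also counted more than once, in overlapping windows of Hsph1 and of Dnajb6 and in the stretch shared by Hspd1 and Hspe1.
Hsph1, chr5:149636337-149636586, minus strand: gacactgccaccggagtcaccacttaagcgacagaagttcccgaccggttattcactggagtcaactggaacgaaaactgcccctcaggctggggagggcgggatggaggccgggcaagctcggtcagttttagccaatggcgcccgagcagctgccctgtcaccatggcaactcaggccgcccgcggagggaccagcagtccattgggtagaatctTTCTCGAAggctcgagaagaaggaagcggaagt
Hspa1b, chr17:34959239-34959488, minus strand: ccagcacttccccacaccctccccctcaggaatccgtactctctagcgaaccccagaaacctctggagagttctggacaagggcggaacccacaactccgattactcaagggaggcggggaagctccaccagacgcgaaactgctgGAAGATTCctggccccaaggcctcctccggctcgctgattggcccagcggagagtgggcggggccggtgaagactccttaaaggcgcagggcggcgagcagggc
These matches describe the letters of the windows and were not measured as binding.

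The libraries held 14497957 to 16293539 counts each. Markers of CD4 T cells were abundant in every library, with 12 of them summing to 8632 to 9471 CPM (counts per 1000000 counts, with totals scaled by the TMM method) in WT and 9633 to 10694 CPM in GOF. For 4 lists of markers of cells that the selection should remove, every GOF library had a higher sum than every WT library. Summed over 15 myeloid markers, of which 14 rose and 0 fell, the levels were 106, 63.3 and 62.5 CPM in WT replicates 1 to 3 and 566, 198, 602 and 227 CPM in GOF replicates 1 to 4. Neutrophil markers (10, of which 9 rose) summed to 0.482 to 9.27 CPM in WT and 61.6 to 217 CPM in GOF, B cell markers (12, of which 8 rose) to 376 to 511 and 802 to 1409 CPM, and NK and CD8 T cell markers (10, of which 8 rose) to 60.8 to 77.3 and 126 to 177 CPM. In WT the neutrophil marker Camp was at 0 counts. GOF replicates 1 and 3 held the highest sums of these 4 lists, so results are also given without that pair and without replicates 2 and 4, both chosen after the data were seen. In RNA from many cells, a change in the share of cells of a type and a change in RNA per cell cannot be told apart.

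Most chaperone genes did not pass the test for a difference between the genotypes, and those that did went both ways. Of the 74 genes 8 had 0 counts in every library and 61 passed the filter on low counts. Of the 61, 57 had at least 10 counts in every library, and the other 4, Hspa1a, Hspa1b, Hspa1l and Hspa2, reached that count in fewer than 3 WT libraries. Among the 61, 8 were higher and 7 lower in GOF cells (edgeR quasi-likelihood test, adjusted p below 0.05). That is 24.6% called, where 31.3% of all 12668 tested genes were called, 16.8% as higher and 14.5% as lower. With a further limit on size, 4 of the 61 were called with a change of at least 2-fold, Hspa12a, Hspa5 and Dnajb9 upward and Dnajc28 downward, against 13.7% of all tested genes. The groups did not overlap for 25 of them, or 41.0%, near the 39.8% of all tested genes. The median log2 fold change was 0.03 for the chaperones and 0.01 for all tested genes, and the median of its absolute size was 0.31 and 0.33. With libraries scaled by their totals alone, 12 were higher and 5 lower, and on log2(FPKM + 1) in limma 9 were higher and 4 lower. All tested genes shifted the same way, with 63.9% of calls higher under column totals and 65.1% in limma, against 53.7% in the TMM-scaled test. The fit that omitted GOF replicates 1 and 3 gave 9 higher and 4 lower, the omission of replicates 2 and 4 gave 6 of each, and the omission of replicate 3 alone gave 4 lower.

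**Figure D1:**
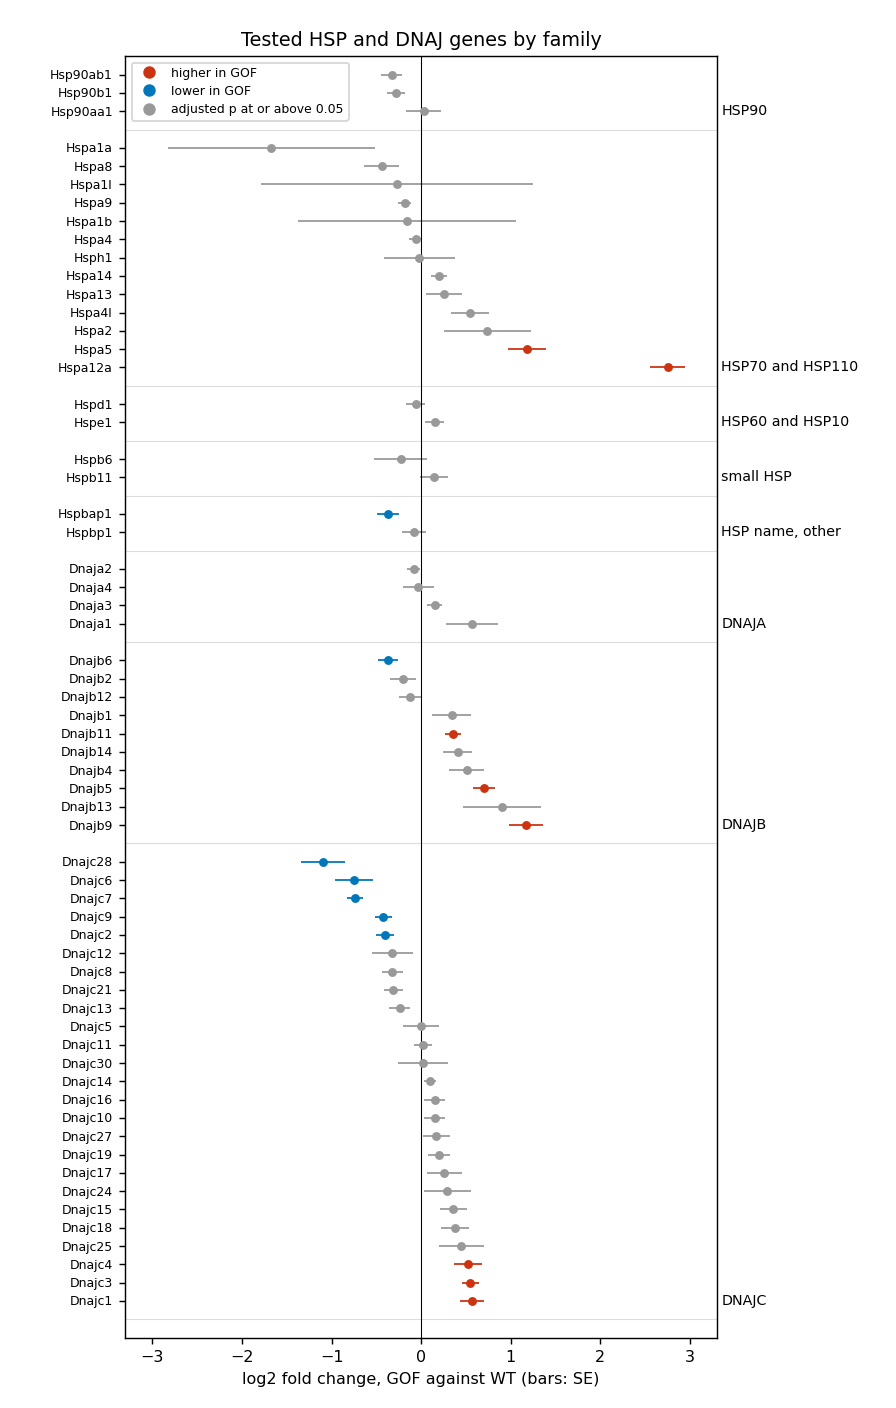
Log2 fold change of GOF against WT for the 61 tested chaperone genes, grouped by family, with bars for the standard error. Red points are the 8 genes higher and blue points the 7 genes lower in GOF at an adjusted p below 0.05, and Hspa12a at 2.75 lies farthest from 0 among them.

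Of the 8 chaperone genes that rose, 5 belonged to the ER. Of 13 genes with products placed in the ER or its membrane, all tested, 5 rose, 0 fell and 8 did not pass, with a median log2 fold change of 0.38. The share called was 38.5%, where 31.3% of all tested genes were called, 16.8% as higher and 14.5% as lower. Hspa5 encodes BiP, the HSP70 of the ER which also binds and restrains the sensors of the unfolded protein response (mm10 chromosome 2, 34771970 to 34777547). It was measured at 144, 129 and 248 CPM in WT replicates 1 to 3 and at 355, 419.8, 362 and 435 CPM in GOF replicates 1 to 4. All 4 GOF libraries lay above all 3 WT libraries, and WT replicate 3 was the highest of the controls. Hspa5 rose 2.26-fold, from a mean of 174 ± 64.6 CPM (SD, n = 3 WT libraries) to 393 ± 40.3 CPM (SD, n = 4 GOF libraries) (edgeR adjusted p = 0.00338, log2 difference 1.18 ± 0.21 SE).

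Dnajb9 encodes ERdj4, a J-domain partner of BiP that is induced by the unfolded protein response (mm10 chromosome 12, 44205897 to 44210068). Its levels were 45.3, 30.9 and 56.7 CPM in WT replicates 1 to 3 and 92.1, 112, 89.0 and 106 CPM in GOF replicates 1 to 4. The groups did not overlap and the order of the WT libraries, lowest in replicate 2 and highest in replicate 3, was that of Hspa5. The rise was 2.25-fold (edgeR adjusted p = 0.00209, log2 difference 1.17 ± 0.19 SE). Dnajc3, which encodes p58IPK, an ER partner of BiP that also binds the kinase PERK (mm10 chromosome 14, 118937932 to 118981702), was at 139, 156 and 138 CPM in WT replicates 1 to 3 and at 200.5, 237, 191 and 214 CPM in GOF replicates 1 to 4. It rose 1.46-fold with no overlap (edgeR adjusted p = 0.00308, log2 difference 0.55 ± 0.10 SE).

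Dnajb11 encodes ERdj3, a soluble J-domain protein that hands substrates to BiP, and was at 82.6, 70.5 and 82.4 CPM in WT replicates 1 to 3 and at 98.1, 105, 97.7 and 101 CPM in GOF replicates 1 to 4. It rose 1.28-fold (edgeR adjusted p = 0.0160, log2 difference 0.36 ± 0.09 SE), and every GOF library was above every WT library. Its call was lost without GOF replicates 1 and 3 (edgeR adjusted p = 0.0845), without 2 and 4 (edgeR adjusted p = 0.0798) and with a replicate block. Dnajc1, which encodes ERdj1, a membrane J-domain protein that docks BiP to ribosomes, was at 25.7, 32.7 and 27.9 CPM in WT replicates 1 to 3 and at 36.4, 48.6, 42.6 and 43.5 CPM in GOF replicates 1 to 4 and rose 1.49-fold (edgeR adjusted p = 0.0108, log2 difference 0.57 ± 0.13 SE). Without GOF replicates 2 and 4 it did not pass (edgeR adjusted p = 0.0706). The gene overlaps Mllt10, and counts of overlapping genes are uncertain because the strand setting is not given.

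Near-matches to the ER stress element were not counted. Hsp90b1 encodes GRP94, the HSP90 of the ER, and its promoter holds 2 exact matches to the letters searched, where those of Hspa5 and Dnajc3 hold 1 each. It was at 366, 414 and 372 CPM in WT replicates 1 to 3 and at 306, 356, 276 and 325 CPM in GOF replicates 1 to 4. Here each GOF value was under the lowest WT value, without a call in the test (edgeR adjusted p = 0.0589, log2 difference -0.28 ± 0.10 SE). It was called lower without GOF replicate 2, without GOF replicates 2 and 4 (-0.39 on the log2 scale, edgeR adjusted p = 0.0391), with a replicate block and in DESeq2. The remaining ER genes that did not pass had log2 fold changes from -0.12 for Dnajb12 to 0.45 for Dnajc25. Within the GOF group Hspa5 and Dnajb9 were highest in replicates 2 and 4, where the myeloid sums were lowest. Without replicates 1 and 3 the log2 fold changes of Hspa5, Dnajb9 and Dnajc3 were 1.29, 1.29 and 0.64, and without replicates 2 and 4 they were 1.06, 1.05 and 0.45, called in either case. The part of B cell and other markers in these rises was not tested.

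**Figure D2:**
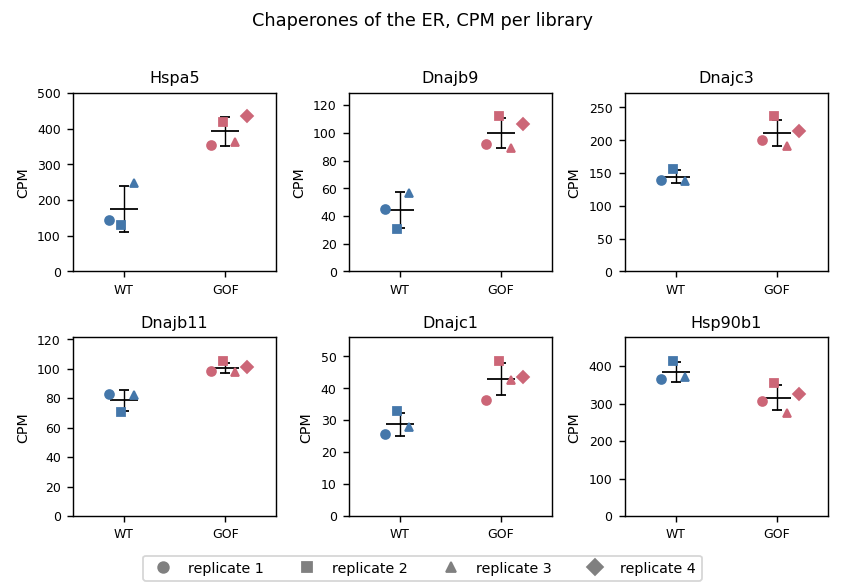
CPM of 6 ER chaperone genes in each library, on axes that start at 0, with symbols for the replicate number and black bars for mean and SD of 3 WT and 4 GOF libraries. Hspa5, Dnajb9, Dnajc3, Dnajb11 and Dnajc1 were higher in all GOF libraries than in all WT libraries, and Hsp90b1 was lower.

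The largest change of any chaperone was that of Hspa12a, a distant relative of HSP70 (mm10 chromosome 19, 58795751 to 58860984). It was measured at 1.51, 1.38 and 1.74 CPM in WT replicates 1 to 3 and at 10.2, 10.9, 10.9 and 9.84 CPM in GOF replicates 1 to 4. The 4 GOF libraries differed little among themselves, and each lay far above the WT libraries. The level rose 6.78-fold, from a mean of 1.54 ± 0.184 CPM (SD, n = 3 WT libraries) to 10.4 ± 0.539 CPM (SD, n = 4 GOF libraries) (edgeR adjusted p = 2.11e-05, log2 difference 2.75 ± 0.20 SE). It remained low per length, at 1.86 FPKM (counts per kilobase of transcript, scaled to the library's total) in GOF. The part of myeloid and other cells in this rise was not tested.

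Among the other 11 tested HSP70 and HSP110 genes 0 passed in edgeR, 2 (Hspa4l and Hspa9) had an unadjusted p below 0.05, and DESeq2 called 1 and limma 0. Hspa8 encodes HSC70, the constitutive cytosolic HSP70, and was second among the chaperones in level per length, at 173 FPKM in WT. It was at 1745, 1381 and 1750.2 CPM in WT replicates 1 to 3 and at 924, 1499, 923 and 1459 CPM in GOF replicates 1 to 4. GOF replicates 1 and 3 lay below all other libraries, and replicates 2 and 4 fell within the WT range. The difference did not pass (edgeR adjusted p = 0.125, log2 difference -0.44 ± 0.20 SE). Hspa9, the mitochondrial HSP70 that pulls in imported proteins, went from a mean of 236 ± 9.40 CPM (SD, n = 3 WT libraries) to 208 ± 7.74 CPM (SD, n = 4 GOF libraries) without overlap and did not pass (edgeR adjusted p = 0.0910, log2 difference -0.18 ± 0.07 SE). Hspa4, an HSP110 that exchanges nucleotides on HSP70, differed by -0.06 ± 0.07 (SE) on the log2 scale, and Hspa14, a ribosome-associated HSP70, by 0.20 ± 0.09 (SE) (edgeR adjusted p = 0.584 and 0.137). Hspa4l and Hspa13, an HSP110 and a microsomal HSP70, differed by 0.55 and 0.26 on the log2 scale (edgeR adjusted p = 0.0787 and 0.365).

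Most heat-inducible chaperones shared an order of the GOF libraries. Of 12 genes listed as inducible by heat through HSF1, 11 were tested and 0 passed in edgeR. An unadjusted p below 0.05 was found for 2 of them, Dnajb4 and Hspa4l, and DESeq2 called 2 and limma 0. In 10 of the 11, all but Hspe1, GOF replicates 2 and 4 both lay above replicates 1 and 3, a pattern found in 23.6% of all tested genes. The reverse order was found in 25.3% of them. Over all 61 chaperones the first pattern was found in 27 (44.3%), in 15 of 22 genes with Hsp names and in 12 of 39 with Dnaj names. This split of the libraries was seen in the data and was not tested.

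Hsph1, the inducible HSP110, was at 68.0, 98.5 and 84.2 CPM in WT replicates 1 to 3 and at 47.7, 129, 38.0 and 114 CPM in GOF replicates 1 to 4. The WT libraries lay between the GOF pairs, so the means of 83.6 ± 15.3 and 82.2 ± 46.0 CPM (SD, n = 3 and 4) hardly differed while the GOF spread was wide. Dnajb1, the J-domain partner of inducible HSP70, was at 158, 137 and 152 CPM in WT replicates 1 to 3 and at 136, 221, 141 and 254 CPM in GOF replicates 1 to 4. GOF replicates 1 and 3 were at the lower end of the WT values and replicates 2 and 4 above all of them (edgeR adjusted p = 0.271, log2 difference 0.34 ± 0.22 SE). Dnaja1, a cytosolic J-domain protein which overlaps Smu1 and is named, like Dnajb4, after its values were seen, was at 131, 130.0 and 125 CPM in WT replicates 1 to 3 and at 119.6, 252, 123 and 272 CPM in GOF replicates 1 to 4. Again replicates 2 and 4 alone stood above the controls (edgeR adjusted p = 0.168, log2 difference 0.57 ± 0.29 SE).

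The inducible HSP70 genes Hspa1a and Hspa1b lie next to each other on chromosome 17 and are near-identical, so reads can be shared between them and their single values are uncertain. Hspa1b was at 0.144, 17.1 and 1.53 CPM in WT replicates 1 to 3 and at 0.846, 10.2, 0.962 and 10.5 CPM in GOF replicates 1 to 4. Hspa1a was at 1.36, 13.5 and 0.209 CPM in WT replicates 1 to 3 and at 0.260, 3.13, 0.361 and 2.57 CPM in GOF replicates 1 to 4. WT replicate 2 held the highest level of either gene, followed by GOF replicates 2 and 4, and the other 4 libraries were at or under 1.53 CPM. Their neighbour Hspa1l, named after its values were seen, had counts in those same 3 libraries and 0 counts in the other 4. Without WT replicate 2 the log2 fold change of Hspa1b went from -0.16 to 2.73 and that of Hspa1a from -1.67 to 1.00, still without a call (edgeR adjusted p = 0.165 and 0.555).

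The calls in this group depended on which libraries entered. The omissions given next kept the GOF libraries already seen to be highest or lowest for these genes. The p-values they gave therefore do not measure a difference between the genotypes. Without GOF replicates 1 and 3, Dnaja1, Dnajb1 and Dnajb4 were called higher by 1.02, 0.66 and 0.77 on the log2 scale (edgeR adjusted p = 0.00110, 0.0118 and 0.0228), where 8.53% of all tested genes were called higher and 8.34% lower. Without GOF replicates 2 and 4, Hspa8 and Hsph1 were called lower at -0.80 and -0.95 on the log2 scale (edgeR adjusted p = 0.00729 and 0.0153), where 13.6% of all tested genes were called higher and 10.5% lower. GOF replicates 1 and 3 were also the libraries with the most myeloid, neutrophil and B cell signal, and the part of those cells in the pattern was not tested. Immediate early genes, which respond within minutes to signals or handling, had even sums across the GOF group. These 15 genes, of which 11 rose and 1 fell, summed to 5589.6, 5309, 5688 and 5709 CPM in GOF replicates 1 to 4, above 2104 to 3080.4 CPM in WT. The part of signals or handling in the order of the heat-inducible genes was not tested.

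**Figure D3:**
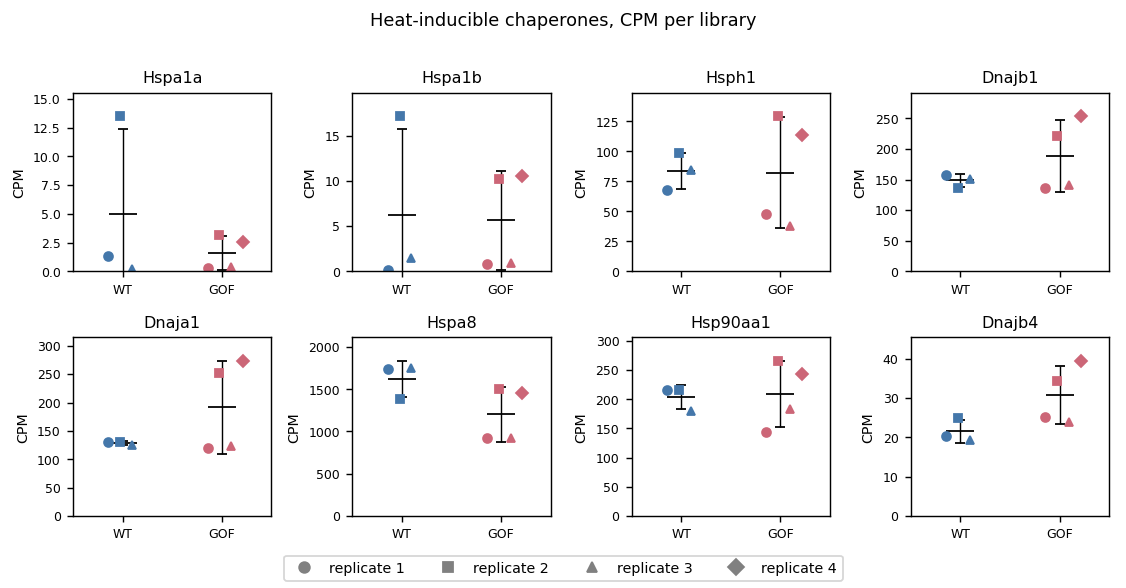
CPM of 8 heat-inducible chaperone genes in each library, on axes that start at 0, with symbols for the replicate number and black bars for mean and SD of 3 WT and 4 GOF libraries. In each of the 8 panels GOF replicates 2 and 4 lie above GOF replicates 1 and 3, and for Hspa1a and Hspa1b the highest library was WT replicate 2.

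Of the 3 HSP90 genes 0 passed in edgeR, 2 (Hsp90ab1 and Hsp90b1) had an unadjusted p below 0.05, and DESeq2 called 2 and limma 0. Hsp90ab1, the constitutive cytosolic HSP90 that stabilises many kinases, was the most abundant chaperone per length, at 315 FPKM in WT and 263 FPKM in GOF. It was at 1934, 1841 and 1858 CPM in WT replicates 1 to 3 and at 1326, 1653, 1297 and 1682 CPM in GOF replicates 1 to 4. Every GOF library was below every WT library, and replicates 1 and 3 were the lowest. The difference missed the threshold by a small margin (edgeR adjusted p = 0.0509, log2 difference -0.33 ± 0.11 SE) and passed without GOF replicate 2 or 4, without both, with a replicate block and in DESeq2. Hsp90aa1, the inducible cytosolic HSP90, was at 216, 217 and 180.5 CPM in WT replicates 1 to 3 and at 143, 266, 183 and 243 CPM in GOF replicates 1 to 4 and differed by 0.03 ± 0.20 (SE) on the log2 scale (edgeR adjusted p = 0.920).

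As a share of all counts, the 3 HSP90 genes held 0.242, 0.239 and 0.236% in WT and 0.183, 0.233, 0.179 and 0.229% in GOF libraries. The HSP70 and HSP110 genes held 0.239, 0.210 and 0.257% and 0.188, 0.266, 0.186 and 0.260%. GOF replicates 1 and 3 were lowest in both families. The DNAJB genes held more in each GOF library, 0.0568, 0.0702, 0.0577 and 0.0741%, than in any WT library, 0.0518, 0.0466 and 0.0521%. These sums include the ER genes Dnajb11 and Dnajb9, the latter at a mean of 44.3 CPM in WT and 99.8 CPM in GOF. They do not describe the family without these genes. All 74 genes together averaged 0.772% ± 0.0258 (SD, n = 3) of a WT library and 0.741% ± 0.0944 (SD, n = 4) of a GOF library. No test was made of these sums.

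**Figure D4:**
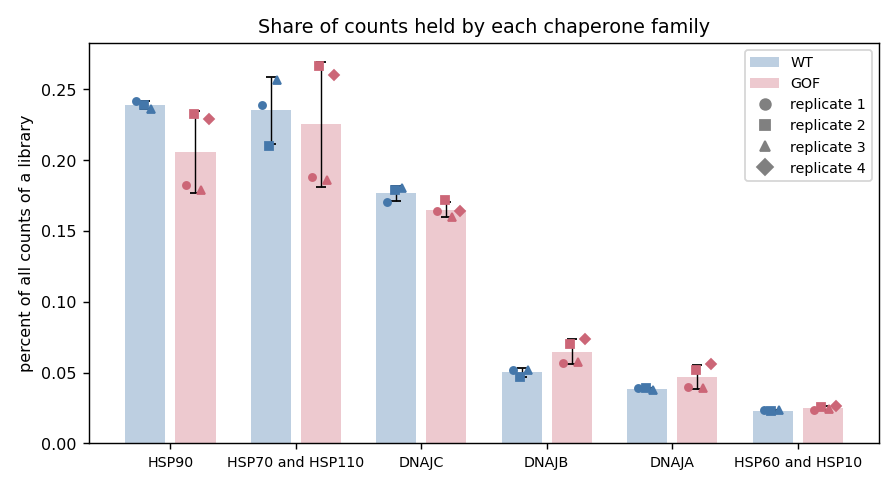
Share of each library's counts held by 6 chaperone families, as a percentage, with bars for group means, black lines for SD and symbols for single libraries. HSP90 and HSP70 with HSP110 spread widely among the 4 GOF libraries, with replicates 2 and 4 above 1 and 3.

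J-domain proteins of classes A and B select substrates for HSP70. Of 4 DNAJA genes 0 passed in edgeR, with 0 at an unadjusted p below 0.05 and 0 called by DESeq2 or limma. Of 10 tested DNAJB genes 3 rose, 1 fell and 6 did not pass, so 40.0% were called, where 31.3% of all tested genes were. Besides the ER genes Dnajb9 and Dnajb11, the rise was in Dnajb5, a class B protein of cytosol and nucleus. It was at 22.3, 19.6 and 26.0 CPM in WT replicates 1 to 3 and at 37.3, 36.3, 38.0 and 35.2 CPM in GOF replicates 1 to 4. The GOF values were tightly grouped above the WT values, 1.62-fold higher (edgeR adjusted p = 0.00273, log2 difference 0.70 ± 0.12 SE). Dnajb6, which keeps polyglutamine proteins from aggregating and has a 3-unit heat shock element before its start, was at 99.2, 93.2 and 77.1 CPM in WT replicates 1 to 3 and at 65.2, 66.9, 69.9 and 76.6 CPM in GOF replicates 1 to 4. It fell 1.29-fold (edgeR adjusted p = 0.0331, log2 difference -0.37 ± 0.11 SE), and this call was lost under 11 of 16 alternatives, among them the omission of any WT replicate but 3. Dnaja2, a class A protein and among the 5 most abundant chaperones per length, differed by -0.08 ± 0.07 (SE) on the log2 scale (edgeR adjusted p = 0.444; named after its value was seen).

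Class C proteins carry a J domain in varied settings and recruit HSP70 to particular tasks. Of 25 tested DNAJC genes 3 rose, 5 fell and 17 did not pass. So 8 of the 25 were called, a share near the 31.3% of all tested genes. Dnajc7, a cytosolic co-chaperone with TPR repeats that binds both HSP70 and HSP90, was the most abundant of them (mm10 chromosome 11, 100582818 to 100620168). It was at 488, 548 and 516 CPM in WT replicates 1 to 3 and at 300.0, 316, 282 and 339 CPM in GOF replicates 1 to 4. All GOF libraries were well below all WT libraries, 1.67-fold less (edgeR adjusted p = 0.000327, log2 difference -0.74 ± 0.09 SE). Its call held in all 16 alternatives. The gene overlaps Cnp and Nkiras2, which makes its counts uncertain in the same way as those of Dnajc1.

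Other falls in class C were smaller or in weakly expressed genes. Dnajc9, a J-domain protein that also chaperones histones, went from a mean of 127 ± 8.16 CPM (SD, n = 3 WT libraries) to 94.4 ± 8.76 CPM (SD, n = 4 GOF libraries) (edgeR adjusted p = 0.0105, log2 difference -0.42 ± 0.10 SE). Dnajc2, the zuotin homologue that works with HSP70 at the ribosome exit tunnel, went from a mean of 119.5 ± 15.8 CPM (SD, n = 3 WT libraries) to 90.4 ± 3.57 CPM (SD, n = 4 GOF libraries) (edgeR adjusted p = 0.0155, log2 difference -0.40 ± 0.10 SE). The call of Dnajc9 was lost without GOF replicates 2 and 4, and that of Dnajc2 without either pair. Dnajc6, auxilin, which with HSC70 strips clathrin from vesicles, fell 1.68-fold to 5.04 CPM (edgeR adjusted p = 0.0255, log2 difference -0.75 ± 0.21 SE). It too lost its call in several settings, including the omission of WT replicate 2 or 3 or GOF replicate 1, 3 or 4. Dnajc28, a J-domain protein listed as mitochondrial, was at 6.47, 7.37 and 7.73 CPM in WT replicates 1 to 3 and at 4.10, 3.64, 2.23 and 3.47 CPM in GOF replicates 1 to 4. It fell 2.14-fold without overlap (edgeR adjusted p = 0.00942, log2 difference -1.10 ± 0.25 SE) and kept its call in every alternative that tested it.

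Besides Dnajc3 and Dnajc1, the class C gene that rose was Dnajc4, at 15.5, 18.0 and 13.4 CPM in WT replicates 1 to 3 and at 24.1, 19.6, 25.6 and 20.5 CPM in GOF replicates 1 to 4 (edgeR adjusted p = 0.0337, log2 difference 0.52 ± 0.16 SE). Its GOF values were highest in replicates 1 and 3, and the call was lost without that pair, without either of them, without WT replicate 1 or 3 and with a replicate block. Among the 17 that did not pass, log2 fold changes ran from -0.32 for Dnajc12 and Dnajc8 to 0.45 for Dnajc25.

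In mitochondria 1 of 10 listed chaperones (Dnajc4) rose, 1 (Dnajc28) fell and 8 did not pass. So 2 of the 10 were called, a smaller share than the 31.3% of all tested genes. Hspd1 (HSP60) and Hspe1 (HSP10), which share the promoter shown with its heat shock elements, differed by -0.06 ± 0.11 and 0.15 ± 0.10 (SE) on the log2 scale (edgeR adjusted p = 0.714 and 0.315). Their levels were 49.7 and 54.4 FPKM in WT. Another Hspd1 transcript starts beyond the Hspe1 start, so the genes overlap and their counts are uncertain. Small HSPs were scarce. Of 8 genes Hspb2 and Hspb3 had 0 counts in every library, Hspb1, Hspb7, Hspb8 and Hspb9 had too few to test, with at most 11 counts in any library, and Hspb6 and Hspb11 did not pass. Hspbap1, whose product binds HSPB1, went from a mean of 36.1 ± 5.04 CPM (SD, n = 3 WT libraries) to 27.9 ± 0.919 CPM (SD, n = 4 GOF libraries) (edgeR adjusted p = 0.0392, log2 difference -0.37 ± 0.12 SE), a call that was lost in 14 of 16 alternatives. Hspbp1, which releases nucleotide from HSP70, did not pass. Dnajb7, Dnajb8, Dnajc5b, Dnajc5g, Dnajc22 and Hspa12b also had 0 counts throughout, and Dnajb3 had too few counts to test.

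Genes that work with these chaperones were read from 5 further lists, in which 9 of 86 tested genes rose and 15 fell. Of all tested genes 16.8% were called higher and 14.5% lower. The median log2 fold change of the 86 was -0.05. Without GOF replicate 3, 9 genes of the 5 lists fell, and without GOF replicates 1 and 3, 4 rose and 6 fell. The tested heat shock factors did not pass, with log2 fold changes of -0.07 for Hsf1, -0.55 for Hsf2 and 0.55 for Hsf4. Hsf2 had an unadjusted p of 0.0442 (edgeR adjusted p = 0.108) and passed the threshold in an alternative. Hsf2 and Hsf4 were named after their values were seen. In the list of factors and regulators, Hsbp1, which binds HSF1 and limits it, was the 1 of 5 that rose (edgeR adjusted p = 0.0120, log2 difference 0.45 ± 0.11 SE), a call lost without GOF replicates 1 and 3 (edgeR adjusted p = 0.102). Of 26 co-chaperones of HSP70 and HSP90, 3 rose and 5 fell. Bag3, a heat-inducible nucleotide exchange factor, rose 1.91-fold to 29.2, 30.8, 31.3 and 34.1 CPM in GOF replicates 1 to 4 and so was not split between the pairs (edgeR adjusted p = 0.00423, log2 difference 0.94 ± 0.18 SE). Fkbp5, an HSP90 partner of the glucocorticoid receptor, rose 1.33-fold, and Unc45a, a myosin chaperone that binds HSP90, fell 1.53-fold (edgeR adjusted p = 0.00659 and 0.00131). Stip1, which links HSP70 to HSP90, and the HSP90 co-chaperone Chordc1 were at 125, 197, 137 and 210.3 and at 74.0, 122, 74.8 and 121 CPM in GOF replicates 1 to 4. They showed the order of the heat-inducible genes, did not pass the test and were named after their values were seen. The same order was that of Fkbp5 and of Bag2, St13, Ahsa1, Ahsa2, Ptges3, Fkbp4, Ppid, Cacybp and Tomm34. Apart from Fkbp5, these were likewise named after their values were seen. The others of the 26, such as Bag4 and Bag5, did not show this order, which was found in 23.6% of all tested genes. The order among the 26 was not tested.

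In the list of the cytosolic chaperonin TRiC, which folds actin and tubulin, and prefoldin, which feeds it, 5 of 15 genes were lower and 0 higher. Of all tested genes 14.5% were called lower and 16.8% higher. The median log2 fold change of the list was -0.21. Tcp1 fell 1.4-fold, Cct4 1.51-fold and Cct5 1.32-fold, all of them TRiC subunits (edgeR adjusted p = 0.00274, 0.00904 and 0.0119). Without GOF replicates 1 and 3 the calls of Cct4 and Cct5 were lost (edgeR adjusted p = 0.0532 and 0.0524), and that of Cct5 also without replicates 2 and 4 (edgeR adjusted p = 0.0864). In the list of ER folding and unfolded protein response genes, 5 of 27 rose and 5 fell, with a median log2 fold change of 0.14. Ppp1r15a, the GADD34 subunit that restores translation after stress, rose 2.57-fold to 317 ± 38.1 CPM (SD, n = 4 GOF libraries) (edgeR adjusted p = 5.69e-05, log2 difference 1.36 ± 0.12 SE). Trib3, a pseudokinase induced downstream of ATF4, fell 11.6-fold from 57.1 ± 12.1 CPM (SD, n = 3 WT libraries) (edgeR adjusted p = 1.66e-05, log2 difference -3.54 ± 0.24 SE). Herpud1, a component of ER-associated degradation, fell 2.42-fold (edgeR adjusted p = 0.000252, log2 difference -1.27 ± 0.14 SE). The rises of Hspa5 and its J-domain partners stood beside rises and falls of other genes of the same response. Of 13 mitochondrial folding and protease genes 0 passed in edgeR, 1 (Timm44) had an unadjusted p below 0.05, and DESeq2 called 0 and limma 1.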

How the data were processed

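RNA from naive splenic CD4 T cells of 3 WT and 4 GOF mice was compared. The deposited table gives read counts and FPKM per gene and library, aligned to mm10; HISAT2 2.0.4, Cufflinks 2.1.1 and Cuffdiff are named in the submitters' processing notes, without their roles, and the sources used here give no strand setting. FPKM as deposited equalled count over gene length and column total within 0.1% for 100% of values. Totals were 14497957 to 16293539 counts.

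Counts were tested with edgeR 4.0.16 in R 4.3.3 (filterByExpr, TMM scaling, quasi-likelihood test, Benjamini-Hochberg adjustment over 12668 genes, threshold 0.05) over all 7 libraries. Log2 changes are GOF minus WT. Standard errors are the log2 change divided by the square root of F. CPM were computed from counts with TMM-scaled totals, and SDs are over mice. The samples are labelled as separate replicates, and p-values measure only the spread between them. On simulated counts for this comparison with 12668 genes, 75% of 100 genes with a log2 change of 1 and 92% of 100 genes with a log2 change of 2 were called, as were 12 of 12468 unchanged genes. The simulated spread followed the level of a gene only, without a split between GOF pairs. These shares therefore do not hold for genes with a wider spread, such as Hspa1a and Hspa1b.

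Genes were named by rule: HSP90, HSP70, HSP110, HSP60 and HSP10 genes with a mean FPKM of at least 1 in a group; called genes of the other HSP names, DNAJA and DNAJB; the 8 called DNAJC genes with the smallest p; the 3 most abundant uncalled genes; and up to 3 called genes per companion list. Genes outside the rule are marked as named after their values were seen, or appear only in counts and ranges. The members and lists were chosen with earlier results of these data known. Alternatives were DESeq2 1.42.0, limma 3.58.1 on log2(FPKM + 1), other scalings and filters, a replicate block and the omission of libraries. Protein sequences were not analysed here, and 1 list of markers is not reported here.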

Additional observations from a re-analysis of the deposited data

Results flagged for a closer look

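For Hspe1, which encodes the mitochondrial HSP10, GOF replicate 3 stood apart from the rest of its group. It was at 116.6 CPM, and the nearest GOF library was at 106.1 CPM. The gap made up 0.865 of the range of the 4 GOF libraries, above Dixon's critical value for 4 samples. Among the 30 genes examined in this way, chance alone flags about 1 in 20.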

How the results depend on the processing

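Of 631 log2 changes of named genes recomputed under the alternatives, 535 kept their direction and their side of the threshold, 51 lost their call, 19 gained one and 26 changed sign. Hspa5, Dnajb9, Dnajc3, Dnajb5 and Hspa12a stayed higher, and Dnajc7 and Dnajc28 lower, in every alternative that tested them. Leaving out 1 library at a time gave 7 to 9 higher and 4 to 8 lower chaperones, and the 4 came without GOF replicate 3. It gave 5 higher ER chaperones each time, 0 to 1 lower ER chaperones, 0 to 2 higher heat-inducible chaperones 6 to 12 higher companion genes and 9 to 19 lower ones, with 9 without GOF replicate 3. A mean FPKM of at least 5 left 5 higher and 4 lower chaperones. Of the 6 lost calls 5 were of genes no longer tested, and Hspbap1 was tested and lost its call. Limma gave 4 lower chaperones and 14 higher companion genes. DESeq2 gave 10 higher and 10 lower chaperones and 2 higher heat-inducible ones, as did scaling by column totals and by upper quartiles for the latter (2 each). Hsp90b1 was the 1 lower ER chaperone in DESeq2, with the replicate block, without GOF replicate 2 and without GOF replicates 2 and 4. Without GOF replicates 1 and 3 there were 4 lower chaperones, 3 higher heat-inducible ones, and 4 higher and 6 lower companion genes. Without GOF replicates 2 and 4 there were 3 higher ER and 2 lower heat-inducible chaperones. The cause of these differences was not tested.

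The sign changes were in genes without a call in the full set. Hsp90aa1 was at -0.10 with the replicate block, from -0.10 (GOF 2) and -0.06 (WT 3 or GOF 4) to 0.18 (GOF 1) without single libraries and at -0.31 without GOF replicates 2 and 4. Without single libraries Hspa1a ran from -2.24 (WT 3) to 1.00 (WT 2) and Hspa1b from -0.73 (WT 1) to 2.73 (WT 2). Hspa1b was also at 0.17 in limma, at 0.21 and 0.20 without GOF replicate 1 or 3 and at 0.72 without both. Under column totals and upper quartiles Hspa4 was at 0.02 and 0.02, Hspd1 at 0.02 and 0.02, and Hsph1 at 0.05 and 0.04. In limma Hspa4 was at 0.02 and Hspd1 at 0.01, and Hspd1 was at 0.07 without GOF replicates 1 and 3. Hsph1 was at 0.02 with the FPKM filter, at 0.11 without WT replicate 2, at -0.33, 0.17 and 0.22 without GOF replicate 2, 1 or 3 and at 0.53 without both. Dnajb1 was at -0.09 without GOF replicates 2 and 4.

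The replicate numbers share no stated litter or day, and the deviations of same-numbered libraries correlated at 0.0295, 0.0911 and -0.0677. A fit with the number as a replicate block over replicates 1 to 3 called 6 chaperones higher and 7 lower. Counts near 0 limit Hspb1, Hspb7, Hspb8 and Hspb9, for which differences were not detectable at this depth.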
